A study of Homo sapiens with 30 samples.

Results

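The genes of vascular endothelial growth factor (VEGF) and angiopoietin signalling were followed across the RNA libraries of a human brain endothelial cell line. They were chosen by name: the VEGF receptors KDR and FLT1, the co-receptors NRP1 and NRP2, the ligands VEGFA, VEGFC and PGF, the angiopoietin receptor TEK with its relative TIE1, and the angiopoietin ANGPT2. These are 10 of the 63138 genes in the count table, and all 10 passed the filter on low counts in every fit. The cells were hCMEC/D3, an immortalised line of brain microvascular endothelial cells often taken to model the blood-brain barrier in a dish, so every group stands for 1 line. RNA was sequenced from 30 libraries in 10 groups of 3. In 5 direct groups the cells were exposed for 12 h to serum-free medium alone (Control), to tumour necrosis factor alpha at 25 ng/mL (TNF), to interleukin 1 beta at 10 ng/mL (IL1b), to epinephrine, a catecholamine, at 200 nM (Epinephrine) or to C5a, a peptide split from a complement protein, at 50 ng/mL (C5a). In 5 vesicle groups, also labelled 12 h, cells of the line received extracellular vesicles, the membrane particles that cells release, enriched from the medium of cells exposed to medium alone (EV-Control) or to 1 of the stimuli (EV-TNF, EV-Epinephrine, EV-IL1b, EV-C5a). The labels do not say whether replicates came from separate cultures, so every p-value measures the spread between these libraries, which may be technical.

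VEGF ligands are secreted dimers that bind receptor tyrosine kinases on endothelial cells. KDR carries most of the signal for growth, migration and permeability, FLT1 binds VEGFA tightly and signals weakly, and the neuropilins hold ligands at the receptors. TEK, also called TIE2, keeps vessels quiet when angiopoietin 1 binds it, ANGPT2 can oppose this in a manner that depends on context, and TIE1 is a related receptor that modulates TEK. In the blood-brain barrier VEGF signalling is known for loosening junctions between endothelial cells.

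The sequences before the start of 4 genes are shown. VEGFC had the largest rise and PGF the largest fall against Control among the 10. KDR and FLT1 are the VEGF receptors, and their changes were smaller. RefSeq promoter entries (build GRCh38.p14) were matched by symbol for 7 of the 10 genes, all but NRP1, VEGFA and ANGPT2. Each sequence holds the 250 bases before the transcription start, 5′ to 3′ on the gene's own strand, and capitals mark matches to the motifs searched.
VEGFC (chr4:176792923-176793172, minus strand): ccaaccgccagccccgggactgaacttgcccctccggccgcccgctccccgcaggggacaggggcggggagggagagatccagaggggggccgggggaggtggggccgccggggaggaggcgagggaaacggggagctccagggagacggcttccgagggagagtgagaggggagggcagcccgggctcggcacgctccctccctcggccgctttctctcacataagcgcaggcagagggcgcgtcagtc
PGF (chr14:74955765-74956014, minus strand): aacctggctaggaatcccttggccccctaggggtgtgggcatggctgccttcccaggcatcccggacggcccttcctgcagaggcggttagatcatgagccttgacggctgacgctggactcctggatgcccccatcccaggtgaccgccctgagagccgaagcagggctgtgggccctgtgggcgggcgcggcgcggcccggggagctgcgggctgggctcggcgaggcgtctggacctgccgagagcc
KDR (chr4:55125596-55125845, minus strand): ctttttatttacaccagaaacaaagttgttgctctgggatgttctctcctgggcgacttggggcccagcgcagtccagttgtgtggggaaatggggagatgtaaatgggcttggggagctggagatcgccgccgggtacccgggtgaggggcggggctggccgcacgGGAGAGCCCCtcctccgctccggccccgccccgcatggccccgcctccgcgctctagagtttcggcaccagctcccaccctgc
FLT1 (chr13:28495129-28495378, minus strand): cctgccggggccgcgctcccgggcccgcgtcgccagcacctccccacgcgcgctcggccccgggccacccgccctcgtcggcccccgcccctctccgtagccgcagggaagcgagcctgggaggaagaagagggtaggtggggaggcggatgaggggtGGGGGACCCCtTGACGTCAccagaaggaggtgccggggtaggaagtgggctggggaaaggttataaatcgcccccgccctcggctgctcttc
The motifs searched on both strands were the cyclic AMP response element TGACGTCA, the AP-1 site TGANTCA and the NF-kappaB consensus. The FLT1 window held a cyclic AMP response element match starting 81 bases before the start and an NF-kappaB match at 92 bases. KDR held an NF-kappaB match at 83 bases. No match lay in the windows of VEGFC, PGF, NRP2, TEK and TIE1, which says only that these letters are not in these windows. Among 35093 RefSeq promoter windows of this length, 1.65% held the cyclic AMP response element, 6.57% the AP-1 site and 5.2% the NF-kappaB consensus. A match describes the letters and is not a shown binding site.

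Library totals ran from 16643961 to 22112326 counts, and the 10 genes had between 40 (ANGPT2 in Epinephrine library 1) and 6995 counts (NRP1 in Epinephrine library 3). The labelled cell type was checked with 15 endothelial markers. In CPM, counts scaled to a common library size, 14 of these reached 1 CPM in Control, among them CDH5 at 174 to 440 CPM and PECAM1 at 143 to 287 CPM over all libraries, and EMCN stayed at or below 0.665 CPM. Of the astrocyte markers, AQP4 was at 0 in all libraries and GFAP at 0.802 to 5.67 CPM, the leukocyte gene PTPRC reached 1.57 CPM at most, and the pericyte genes KCNJ8 and ABCC9 did not exceed 0.214 CPM. The mural gene CSPG4 was present at 251 to 442 CPM, PDGFRB at 34.4 to 88.8 CPM and the fibroblast gene COL1A1 at 56.5 to 123 CPM. Replicates of every group differed beyond counting noise, most of all Epinephrine library 2 and EV-Control libraries 1 and 3. In bulk RNA, fewer cells of a type and less RNA per cell cannot be told apart.

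On a scale that allows comparison between genes, CPM divided by the kilobases of the longest coding transcript, NRP1 and TIE1 stood highest in Control, at 44.8 ± 0.607 and 41.9 ± 2.0 (SD, n = 3). PGF followed at 20.9 ± 1.31, VEGFA at 14.3 ± 1.24, TEK at 7.71 ± 0.496 and VEGFC at 5.42 ± 0.124. The VEGF receptors FLT1 (2.5 ± 0.0614) and KDR (1.74 ± 0.0618) were lower, with NRP2 at 1.88 ± 0.241 and ANGPT2 lowest at 0.724 ± 0.0442. The order depends on which length is used: with all annotated exons, TIE1 (24.3) stood above NRP1 (22.9), TEK (7.63) above PGF (6.76), VEGFC (4.63) above VEGFA (3.51) and KDR (1.61) above FLT1 (1.41). ANGPT2 was the lowest of the 10 in every group with either length. The transcripts of a gene were counted together, so soluble and membrane-bound FLT1, or the VEGFA isoforms, were not separated. Annotated genes on the opposite strand overlap KDR, NRP1, NRP2, VEGFA, VEGFC and ANGPT2 (the last lies within MCPH1), and the strand setting of the counting is not given in the sources used here, so the counts of these 6 are uncertain to that extent.

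**Figure D1:**
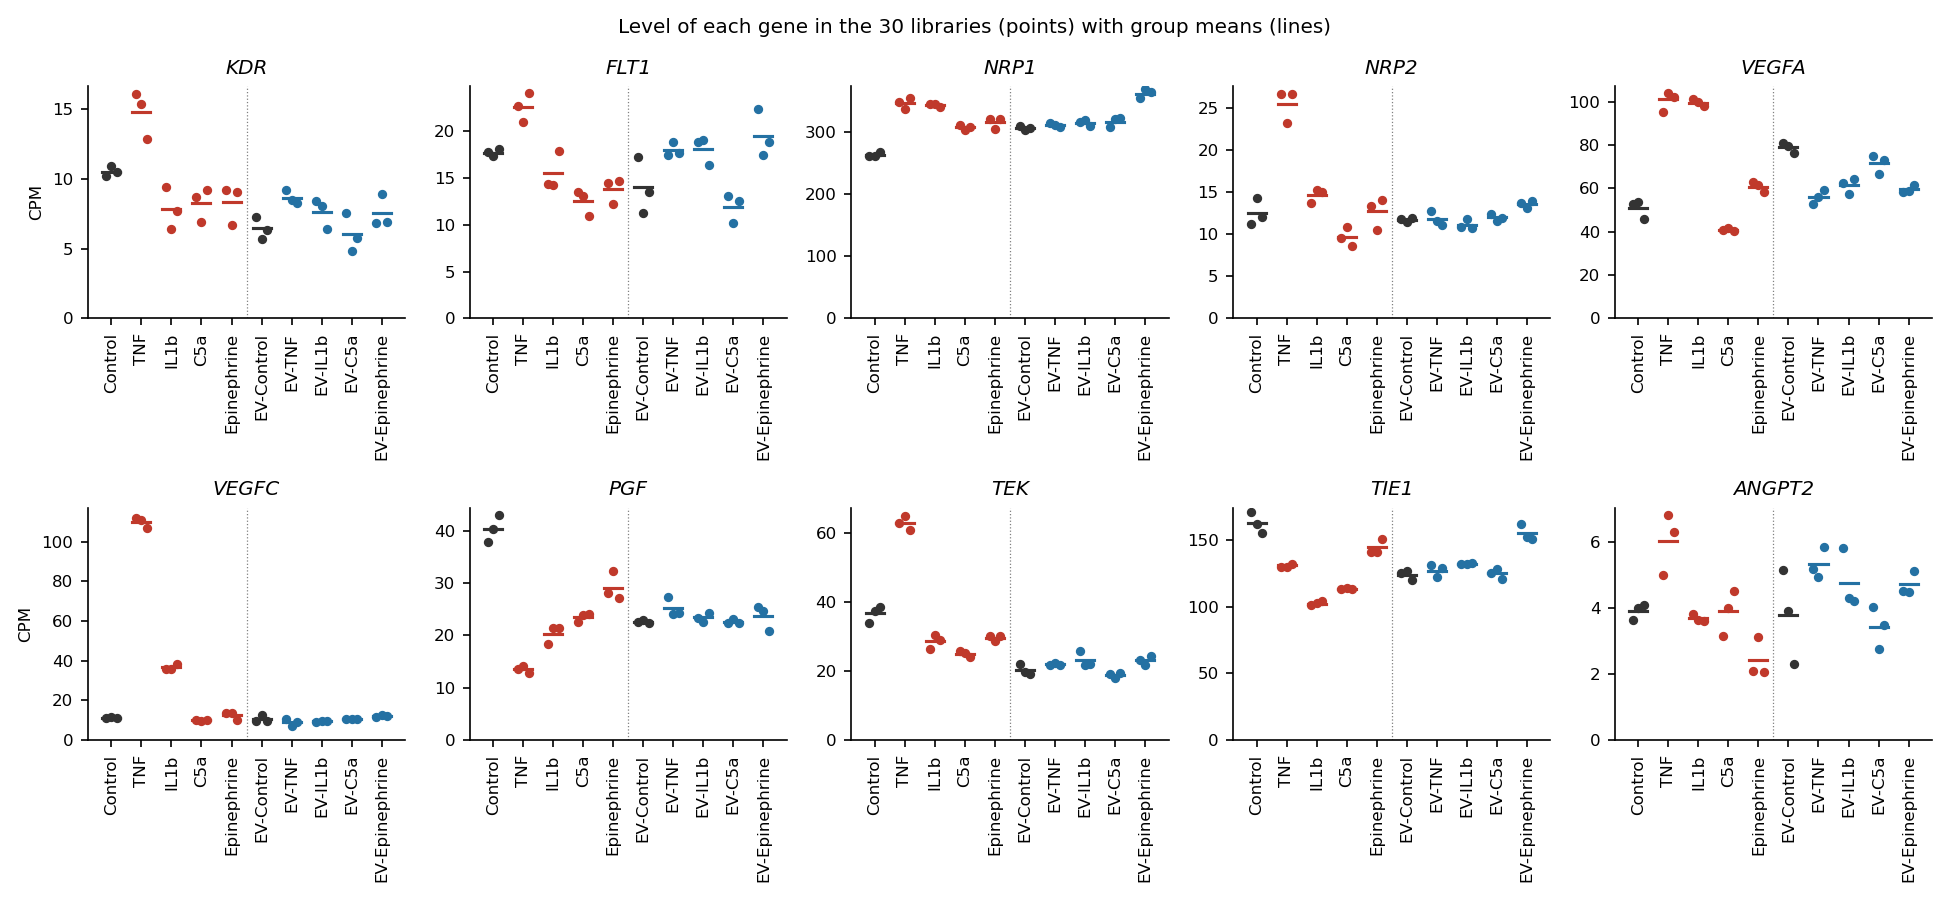
Level of each gene in CPM (vertical axis, linear from 0) in the 10 groups (horizontal axis). Points are the 30 libraries, lines are group means of 3, and the dotted line separates direct from vesicle groups. VEGFC stands at 107 to 112 CPM in TNF and at 7.16 to 13.7 CPM outside the TNF and IL1b groups.

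With each stimulus, most of the 10 genes differed from Control. Against Control, TNF raised 8 and lowered 2 of the 10, in the quasi-likelihood test of edgeR at an adjusted p of 0.05 (Benjamini-Hochberg, over all genes). Of all 15908 genes tested, 52.7% were called with TNF, 27.5% higher and 25.3% lower. IL1b raised 3 and lowered 4, against 24% and 22.6% of all genes (46.6% in either direction). C5a raised 1 and lowered 6, against 11.8% and 10.8% (22.6% in all). Epinephrine raised 2 and lowered 5, against 13.5% and 11.8% (25.2% in all). The median log2 fold change of the 10 genes was 0.56 with TNF, -0.13 with IL1b, -0.35 with C5a and -0.23 with Epinephrine, and over all genes it lay between -0.012 and 0.009. These 4 comparisons share the Control libraries. PGF and TIE1 fell and NRP1 rose in all 4 of them. EV-Control, given vesicles of unstimulated cells, differed from Control in the same directions (PGF -0.84, TIE1 -0.39 and NRP1 0.22 on the log2 scale). What the stimuli and the shared Control libraries each contributed was not tested. Scaling by total counts in place of trimmed-mean factors shifted the median gene of the TNF comparison by -0.288 and the share of higher genes among those called from 52.1% to 22.7%. It left 7 of the 10 genes called with TNF, and each gene that lost its call is named below.

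**Figure D2:**
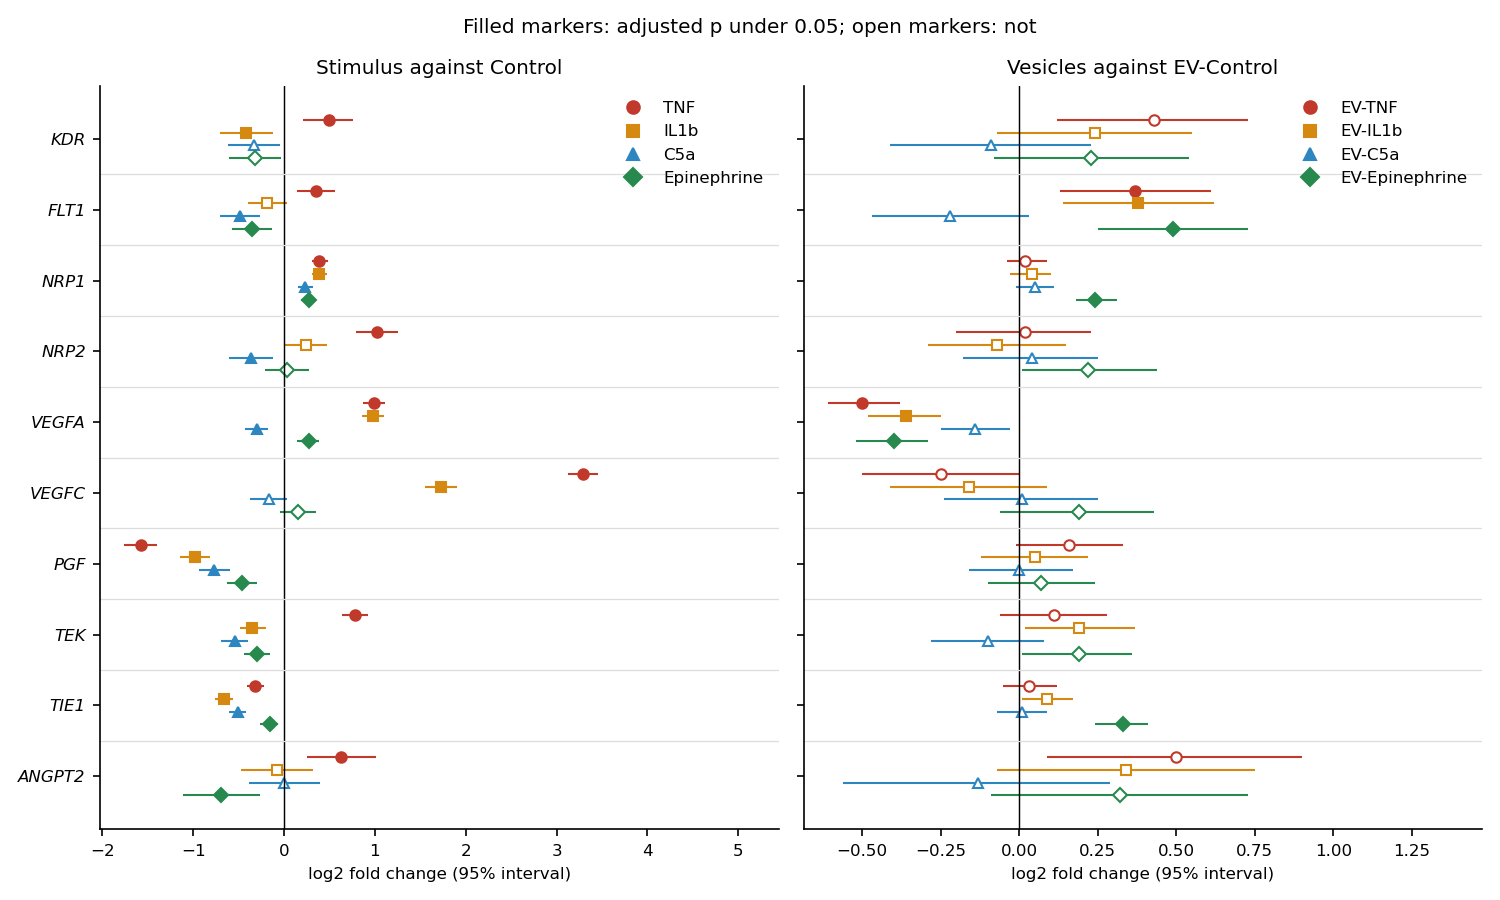
Log2 fold change of each gene (horizontal axis) with its 95% interval, for direct stimuli against Control (left) and vesicles against EV-Control (right); the 2 panels have different scales. Filled markers passed an adjusted p of 0.05 and open ones did not. VEGFC with TNF lies at 3.29 and PGF with TNF at -1.58, and the vesicle differences run from -0.5 to 0.5.

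The receptors KDR and FLT1 rose with TNF, while KDR fell with IL1b and FLT1 fell with C5a and Epinephrine. KDR (ENSG00000128052, chr4:55078259-55125595, minus strand, positions here and below from GENCODE 29 on GRCh38) was at 10.2, 10.9 and 10.5 CPM in the Control libraries and at 16.1, 15.4 and 12.9 CPM with TNF. The TNF libraries were all above the Control libraries. The difference was 0.49 on the log2 scale (standard error 0.14, adjusted p = 0.00275). IL1b libraries had 9.44, 6.39 and 7.72 CPM of KDR, all below Control, a log2 difference of -0.42 ± 0.14 (standard error, adjusted p = 0.0168). That call was lost without Control library 2 (adjusted p = 0.0576), IL1b library 2 (0.141) or IL1b library 3 (0.0547). C5a (8.74, 6.93 and 9.24 CPM) and Epinephrine (9.23, 6.73 and 9.05 CPM) also lay below every Control library, but their differences of -0.33 and -0.32 did not pass the test (adjusted p = 0.0917 and 0.0959), while with only Control and C5a in the fit the C5a difference did (0.0366).

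FLT1 (ENSG00000102755, chr13:28300344-28495145, minus strand), which can act as a decoy for VEGFA, had 17.8, 17.3 and 18.1 CPM in Control and 22.7, 21.0 and 24.1 CPM with TNF, with no overlap (log2 difference 0.35, standard error 0.1, adjusted p = 0.00467). With C5a it had 13.5, 13.1 and 10.9 CPM and with Epinephrine 14.4, 12.2 and 14.7 CPM, all below Control. FLT1 fell by 0.49 on the log2 scale with C5a (adjusted p = 0.000797) and by 0.35 with Epinephrine (adjusted p = 0.0141). The second of these was lost without Epinephrine library 2 (adjusted p = 0.068). IL1b libraries (14.3, 14.2 and 17.9 CPM) overlapped Control, and the difference of -0.19 did not pass (adjusted p = 0.154), although it did without IL1b library 3 (-0.29, adjusted p = 0.0376). When libraries were scaled by total counts, the TNF differences of KDR (0.21, adjusted p = 0.177) and FLT1 (0.07, adjusted p = 0.551) were no longer called.

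Over all 10 groups KDR was highest in TNF (14.8 CPM), then Control (10.5 CPM), then EV-TNF (8.66 CPM), and the ranges of these neighbours did not overlap. From EV-TNF down to EV-C5a (6.03 CPM) each group overlapped the next. FLT1 ran from TNF (22.6 CPM) to EV-C5a (11.9 CPM), and every group overlapped its neighbour in that order.

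The co-receptor NRP1 (ENSG00000099250, chr10:33177492-33336262, minus strand), which binds VEGFA and class 3 semaphorins, was lowest in Control and had the smallest span of group means of the 10 genes. Control libraries had 262, 261 and 268 CPM. All 27 other libraries were higher, from 303 CPM to 369 CPM. NRP1 rose by 0.39 on the log2 scale with both TNF and IL1b, by 0.27 with Epinephrine and by 0.23 with C5a (standard error 0.041 each, largest adjusted p 4.29e-05 with C5a). NRP2 (ENSG00000118257, chr2:205681990-205798133, plus strand), the neuropilin of lymphatic and venous endothelium that also binds VEGFC, had 11.2, 14.3 and 12.0 CPM in Control and 26.7, 23.2 and 26.7 CPM with TNF. The TNF libraries stood clear of all other groups, and the next group, IL1b, reached 15.3 CPM at most. NRP2 rose 2.03-fold with TNF (log2 1.02, standard error 0.11, adjusted p = 1.04e-09). It was lower with C5a at 9.52, 10.9 and 8.64 CPM, a log2 difference of -0.36 (adjusted p = 0.0283) that was lost without Control library 2 (adjusted p = 0.212), C5a library 1 (0.0827) or C5a library 3 (0.151). Its differences with IL1b (0.24, adjusted p = 0.0986) and Epinephrine (0.03, adjusted p = 0.886) did not pass, and the first did without Control library 2 (0.34, adjusted p = 0.0346). Below IL1b, each group overlapped the next in the order of NRP2 levels.

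Among the ligands, VEGFC rose and PGF fell with both cytokines, and VEGFA rose about equally with both. VEGFC (ENSG00000150630, chr4:176683538-176792727, minus strand), the main ligand of the lymphatic receptor FLT4 and also a ligand of KDR, had 10.9, 11.4 and 11.3 CPM in Control. TNF libraries had 112, 111 and 107 CPM and IL1b libraries 36.0, 36.0 and 38.5 CPM. These 3 groups did not overlap. VEGFC was 9.8-fold higher with TNF (log2 3.29, standard error 0.083, adjusted p = 5.59e-28) and 3.31-fold higher with IL1b (log2 1.73, standard error 0.087, adjusted p = 3.42e-18). With C5a it had 9.83, 9.53 and 10.2 CPM, all below Control, and the difference of -0.17 did not pass (adjusted p = 0.241). With Epinephrine it had 13.7, 13.4 and 10.2 CPM, on both sides of Control (0.15, adjusted p = 0.27). Without Epinephrine library 3 the difference was 0.29 and passed (adjusted p = 0.0273). FLT4 itself was scarce, at 0.466 to 3.23 CPM over all libraries (a gene singled out after its values were seen).

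PGF (ENSG00000119630, chr14:74941834-74955784, minus strand), a ligand of FLT1 and not of KDR, was highest in Control, at 37.8, 40.3 and 42.9 CPM. TNF libraries had 13.5, 14.2 and 12.8 CPM, IL1b 18.3, 21.4 and 21.4 CPM, C5a 22.6, 23.8 and 24.0 CPM, and Epinephrine 28.0, 32.2 and 27.2 CPM. No library of any of these 4 groups reached the lowest Control library, and TNF stood below the other 3. PGF fell by 1.58 on the log2 scale with TNF (standard error 0.09, adjusted p = 2.78e-17) and by 0.98 with IL1b (standard error 0.084, adjusted p = 5.62e-12). It fell by 0.77 with C5a (standard error 0.083, adjusted p = 6.79e-09) and by 0.46 with Epinephrine (standard error 0.081, adjusted p = 4.14e-05). The 5 vesicle groups lay close together between 20.9 and 27.3 CPM.

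VEGFA (ENSG00000112715, chr6:43770184-43786487, plus strand), the principal ligand of KDR, had 52.8, 53.7 and 45.7 CPM in Control. It had 95.3, 104 and 102 CPM with TNF and 101, 99.8 and 98.0 CPM with IL1b. The cytokine groups overlapped each other and stood above all other groups. VEGFA was 1.98-fold higher with TNF (log2 0.99, standard error 0.06, adjusted p = 1.63e-16) and 1.97-fold higher with IL1b (log2 0.98, standard error 0.059, adjusted p = 5.95e-16). With C5a it had 40.7, 41.6 and 40.3 CPM, the lowest of all groups, and fell by 0.3 (adjusted p = 0.000385). With Epinephrine it had 62.7, 61.3 and 58.1 CPM, all above Control, a log2 difference of 0.27 (adjusted p = 0.000997). HIF1A, which encodes the oxygen-regulated factor known for driving VEGFA transcription and was singled out after its values were seen, rose by 1.04 with TNF, 0.89 with IL1b and 0.7 with Epinephrine (largest adjusted p 3.84e-13). Its list of 14 hypoxia control genes went both ways. With TNF 6 were higher and 4 lower (27.5% and 25.3% of all genes), and with IL1b 7 and 3 (24% and 22.6%). With C5a the counts were 2 and 3 (11.8% and 10.8%), and with Epinephrine 3 and 3 (13.5% and 11.8%). NDRG1, another gene of that list, fell by 0.56 with TNF and by 0.43 with Epinephrine. The part of HIF1A or of its list in the VEGFA differences was not tested.

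Per kilobase, the 3 ligands together stood at 40.7 ± 0.885 in Control, 88.7 ± 1.67 with TNF and 56.5 ± 1.06 with IL1b (SD, n = 3). PGF made up 51.4% ± 2.91 of this sum in Control and 7.89% ± 0.281 with TNF, while VEGFC went from 13.3% ± 0.131 to 60.0% ± 1.2. With IL1b the shares were 31.6% ± 0.878 VEGFC, 49.8% ± 1.58 VEGFA and 18.7% ± 1.35 PGF. With C5a the sum was lowest, 28.5 ± 0.467, and PGF (42.7% ± 0.723) and VEGFA (40.6% ± 0.859) stood close together. In the vesicle groups VEGFA had the largest share on this length, from 47.7% ± 3.41 in EV-TNF to 57.0% ± 1.23 in EV-Control. In some groups, Control and TNF not among them, which ligand leads depends on the length used. With all annotated exons, PGF still led in Control (45.4%, VEGFC 31%) and VEGFC with TNF (83.1%, PGF 4.14%). With IL1b, however, VEGFC (59.6%) then stood above VEGFA (27%) and PGF (13.4%). VEGFC also came first with C5a (37.6%, PGF 36.3%), Epinephrine (36.0%, PGF 34.4%) and EV-Epinephrine (38.2%, VEGFA 31.5%), and PGF in EV-TNF (35.9%, VEGFA 33.0%). VEGFA stayed first in EV-Control (40.1%), EV-IL1b (35.1%) and EV-C5a (37.6%). VEGFB, a ligand of FLT1 outside these 10 genes, was at 17.3 to 28.8 CPM, and VEGFD did not exceed 0.476 CPM (both singled out after their values were seen).

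**Figure D3:**
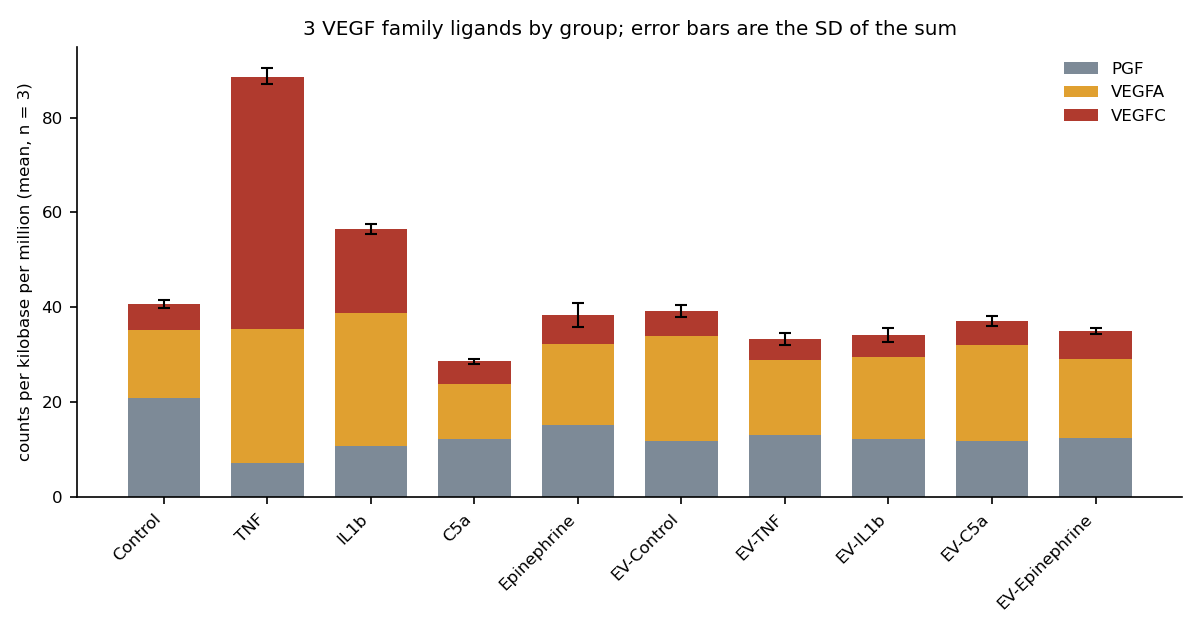
Stacked mean levels of PGF, VEGFA and VEGFC in CPM per kilobase (vertical axis, from 0) in the 10 groups (n = 3 each). Error bars are the SD of the sum. The bar of TNF reaches 88.7 with 60.0% from VEGFC, and the other bars reach 28.5 to 56.5.

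The receptors TEK and TIE1 went in opposite directions with TNF. TEK (ENSG00000120156, chr9:27109141-27230175, plus strand), the receptor of angiopoietins, had 34.0, 37.5 and 38.5 CPM in Control and 62.9, 65.1 and 60.9 CPM with TNF, with no overlap. It was 1.72-fold higher (log2 0.78, standard error 0.069, adjusted p = 4.53e-12). With the other stimuli TEK was below every Control library: 26.5, 30.4 and 29 CPM with IL1b, 25.7, 25.2 and 24.1 CPM with C5a, and 30.1, 28.6 and 30.3 CPM with Epinephrine. It fell by 0.54 with C5a (adjusted p = 5.96e-07), by 0.35 with IL1b (adjusted p = 0.000136) and by 0.3 with Epinephrine (adjusted p = 0.00199). The vesicle groups had the lowest TEK levels, between 18.1 and 25.9 CPM, and the highest EV-IL1b and EV-Epinephrine libraries overlapped C5a, the lowest direct group.

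TIE1 (ENSG00000066056, chr1:43300993-43323108, plus strand) had 171, 162 and 155 CPM in Control and was lower in each direct group. TNF libraries had 130, 130 and 132 CPM, IL1b 101, 103 and 104 CPM, C5a 113, 114 and 113 CPM, and Epinephrine 141, 141 and 151 CPM. None of these libraries overlapped Control. TIE1 fell by 0.66 with IL1b (standard error 0.048, adjusted p = 6.91e-14), by 0.51 with C5a (adjusted p = 2.3e-10) and by 0.32 with TNF (adjusted p = 5.11e-07). It fell by 0.16 with Epinephrine (adjusted p = 0.00998), a call lost without Control library 1 (adjusted p = 0.116) or with only the 2 groups in the fit (0.0613). The ratio of TIE1 to TEK per kilobase was 5.47 ± 0.622 in Control, 2.54 ± 0.109 with TNF and 4.4 ± 0.268 with IL1b (SD, n = 3). It was between 7.03 and 8.27 on average in the vesicle groups.

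ANGPT2 (ENSG00000091879, chr8:6499651-6563409, minus strand), which endothelial cells store and release, was the scarcest of the 10 genes, at 40 to 127 counts per library. Control libraries had 3.65, 4.01 and 4.11 CPM, TNF libraries 5.01, 6.82 and 6.3 CPM, and Epinephrine libraries 2.1, 3.11 and 2.07 CPM. The TNF libraries were all above Control and the Epinephrine libraries all below. With TNF the log2 difference was 0.63 (standard error 0.19, adjusted p = 0.00467), and it was not called under total-count scaling (0.35, adjusted p = 0.0966). With Epinephrine ANGPT2 fell by 0.69 (standard error 0.21, adjusted p = 0.0112), a call lost without Epinephrine library 1 (adjusted p = 0.0519) or library 3 (0.0712). Its differences with IL1b (-0.08, 95% interval -0.47 to 0.32) and C5a (0.00, -0.39 to 0.4) did not pass. ANGPT1, the ligand that activates TEK, was at 1.4 to 4.14 CPM over all libraries (singled out after its values were seen).

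The 2 cytokines were compared directly. Of the 10 genes, 7 were lower and 1 higher with IL1b than with TNF, against 21.4% and 19.9% of all genes tested (41.4% in either direction). VEGFC was 2.96-fold lower with IL1b (log2 -1.57, standard error 0.072, adjusted p = 1.13e-19) and TEK 2.19-fold lower (log2 -1.13, standard error 0.07, adjusted p = 7.74e-16). KDR (-0.9), NRP2 (-0.79), ANGPT2 (-0.71), FLT1 (-0.54) and TIE1 (-0.34) were lower too, the largest adjusted p being 0.00237 for ANGPT2. PGF was higher with IL1b, by 0.6 (adjusted p = 2.47e-06). NRP1 (0.00, 95% interval -0.09 to 0.08) and VEGFA (-0.01, -0.12 to 0.11) did not pass. With total-count scaling, which moved the median gene by 0.205 and the share of higher genes among those called from 48.1% to 76.1%, both of these were 0.19 higher with IL1b (adjusted p = 0.000142 for NRP1 and 0.0057 for VEGFA).

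Against EV-Control, VEGFA was called lower and FLT1 higher with EV-TNF, EV-IL1b and EV-Epinephrine. The FLT1 calls for EV-TNF and EV-IL1b depended on single libraries. With EV-TNF, 1 gene was higher and 1 lower than in EV-Control, against 5.9% and 7.42% of the 15918 genes tested (13.3% in all). EV-IL1b likewise raised 1 and lowered 1, against 6.49% and 8.14% (14.6% in all). EV-Epinephrine raised 3 and lowered 1, against 9.12% and 10.5% (19.7% in all). With EV-C5a none of the 10 passed edgeR's quasi-likelihood test or DESeq2, while 0.0503% of all genes were called by edgeR, 0.0126% higher and 0.0377% lower. Of the 10, VEGFA alone had an unadjusted p under 0.05 in edgeR's fit across all genes (-0.14, adjusted p = 0.53). These 4 comparisons share the EV-Control libraries. Of the 15 endothelial markers, 8 were higher and 2 lower with EV-TNF, 6 and 2 with EV-IL1b, 7 and 2 with EV-Epinephrine, and 0 and 1 with EV-C5a. Their median log2 fold change was 0.22 in each of the first 3, and their part in the results below was not tested.

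VEGFA had 80.7, 79.7 and 76.2 CPM in EV-Control. It had 52.9, 55.9 and 59.2 CPM in EV-TNF, 62.4, 57.2 and 64.4 CPM in EV-IL1b, and 58.1, 58.8 and 61.7 CPM in EV-Epinephrine. All 9 of these libraries were below all 3 EV-Control libraries, and EV-C5a lay between, at 75.1, 66.4 and 73.0 CPM. VEGFA fell by 0.5 with EV-TNF (standard error 0.056, adjusted p = 6.24e-10), by 0.4 with EV-Epinephrine (standard error 0.056, adjusted p = 1.21e-07) and by 0.36 with EV-IL1b (standard error 0.056, adjusted p = 1.62e-06). EV-Control itself stood above every Control library, and EV-TNF overlapped Control.

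FLT1 varied among the EV-Control libraries, with 17.2, 11.2 and 13.5 CPM. EV-TNF had 17.4, 18.8 and 17.7 CPM, EV-IL1b 18.8, 19.0 and 16.4 CPM, and EV-Epinephrine 22.3, 17.4 and 18.8 CPM. EV-TNF and EV-Epinephrine lay above all EV-Control libraries, narrowly so, and EV-IL1b overlapped the highest of them. FLT1 was higher by 0.49 with EV-Epinephrine (standard error 0.12, adjusted p = 0.00192), by 0.38 with EV-IL1b (adjusted p = 0.0255) and by 0.37 with EV-TNF (adjusted p = 0.0298). The call for EV-TNF was lost without EV-Control library 2 (0.23, adjusted p = 0.237) or 3 (0.0706) and without any 1 of the EV-TNF libraries (0.0634 to 0.11). The call for EV-IL1b was lost without EV-Control library 2 (0.24, adjusted p = 0.216) or 3 (0.0639) and without EV-IL1b library 1 (0.109) or 2 (0.114). Both calls were also lost with only the 2 groups compared in the fit (0.0582 for EV-TNF and 0.0604 for EV-IL1b).

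EV-Epinephrine also raised NRP1 and TIE1. NRP1 had 355, 369 and 364 CPM there against 310, 303 and 306 CPM in EV-Control, the highest group of all 10 (log2 difference 0.24, standard error 0.032, adjusted p = 5.37e-08). TIE1 had 162, 152 and 151 CPM against 125, 127 and 120 CPM, with no overlap (0.33, standard error 0.041, adjusted p = 1.37e-08). The summed level of 10 immediate early genes, such as FOS and EGR1, was 1290 to 1580 CPM in EV-Epinephrine and 2550 to 3550 CPM in EV-Control, and 7 of the 15 endothelial markers were higher and 2 lower. The part of either list in these results was not tested. VEGFC, PGF, NRP2, TEK, KDR and ANGPT2 passed in no vesicle comparison. The largest of their differences was 0.5 for ANGPT2 with EV-TNF (95% interval 0.09 to 0.9, adjusted p = 0.0949). For VEGFC, which rose with the cytokines themselves, the interval was -0.5 to 0.00 with EV-TNF and -0.41 to 0.09 with EV-IL1b. KDR with EV-TNF (0.43, adjusted p = 0.0514) was called without EV-Control library 1 (0.52, adjusted p = 0.0341), as was ANGPT2 (0.77, adjusted p = 0.0113).

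Cells given vesicles of unstimulated cells differed from cells in serum-free medium in 7 of the 10 genes: 2 were higher and 5 lower in EV-Control than in Control, against 12.1% and 9.8% of the 16691 genes tested (21.9% in all). TEK had 22.0, 19.7 and 19.1 CPM in EV-Control, all far below the Control libraries, and was 1.81-fold lower (log2 -0.86, standard error 0.078, adjusted p = 1.32e-13). PGF, at 22.5, 22.9 and 22.3 CPM, was 1.79-fold lower (log2 -0.84, standard error 0.081, adjusted p = 1.5e-12). KDR, at 7.26, 5.73 and 6.35 CPM, was 1.64-fold lower (log2 -0.71, standard error 0.15, adjusted p = 0.000256). TIE1 fell by 0.39 (adjusted p = 1.05e-10) and FLT1 by 0.35 (adjusted p = 0.024), and the FLT1 call was lost without EV-Control library 2 (-0.2, adjusted p = 0.276) or 3 (0.0773) and without Control library 1 (0.0691) or 3 (0.0742). VEGFA was higher by 0.64 (adjusted p = 2.87e-13) and NRP1 by 0.22 (adjusted p = 2.74e-06). VEGFC (-0.08), NRP2 (-0.1) and ANGPT2 (-0.06) did not pass. Endothelial markers moved beside these receptors: 12 of 15 were lower in EV-Control and none higher, with a summed level of 991 to 1030 CPM against 1450 to 1490 CPM in Control. Immediate early genes summed to 2550 to 3550 CPM against 1400 to 2030 CPM. Their part in the result was not tested, and whatever else differed between the direct and the vesicle cultures cannot be told apart from the vesicles.

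**Figure D4:**
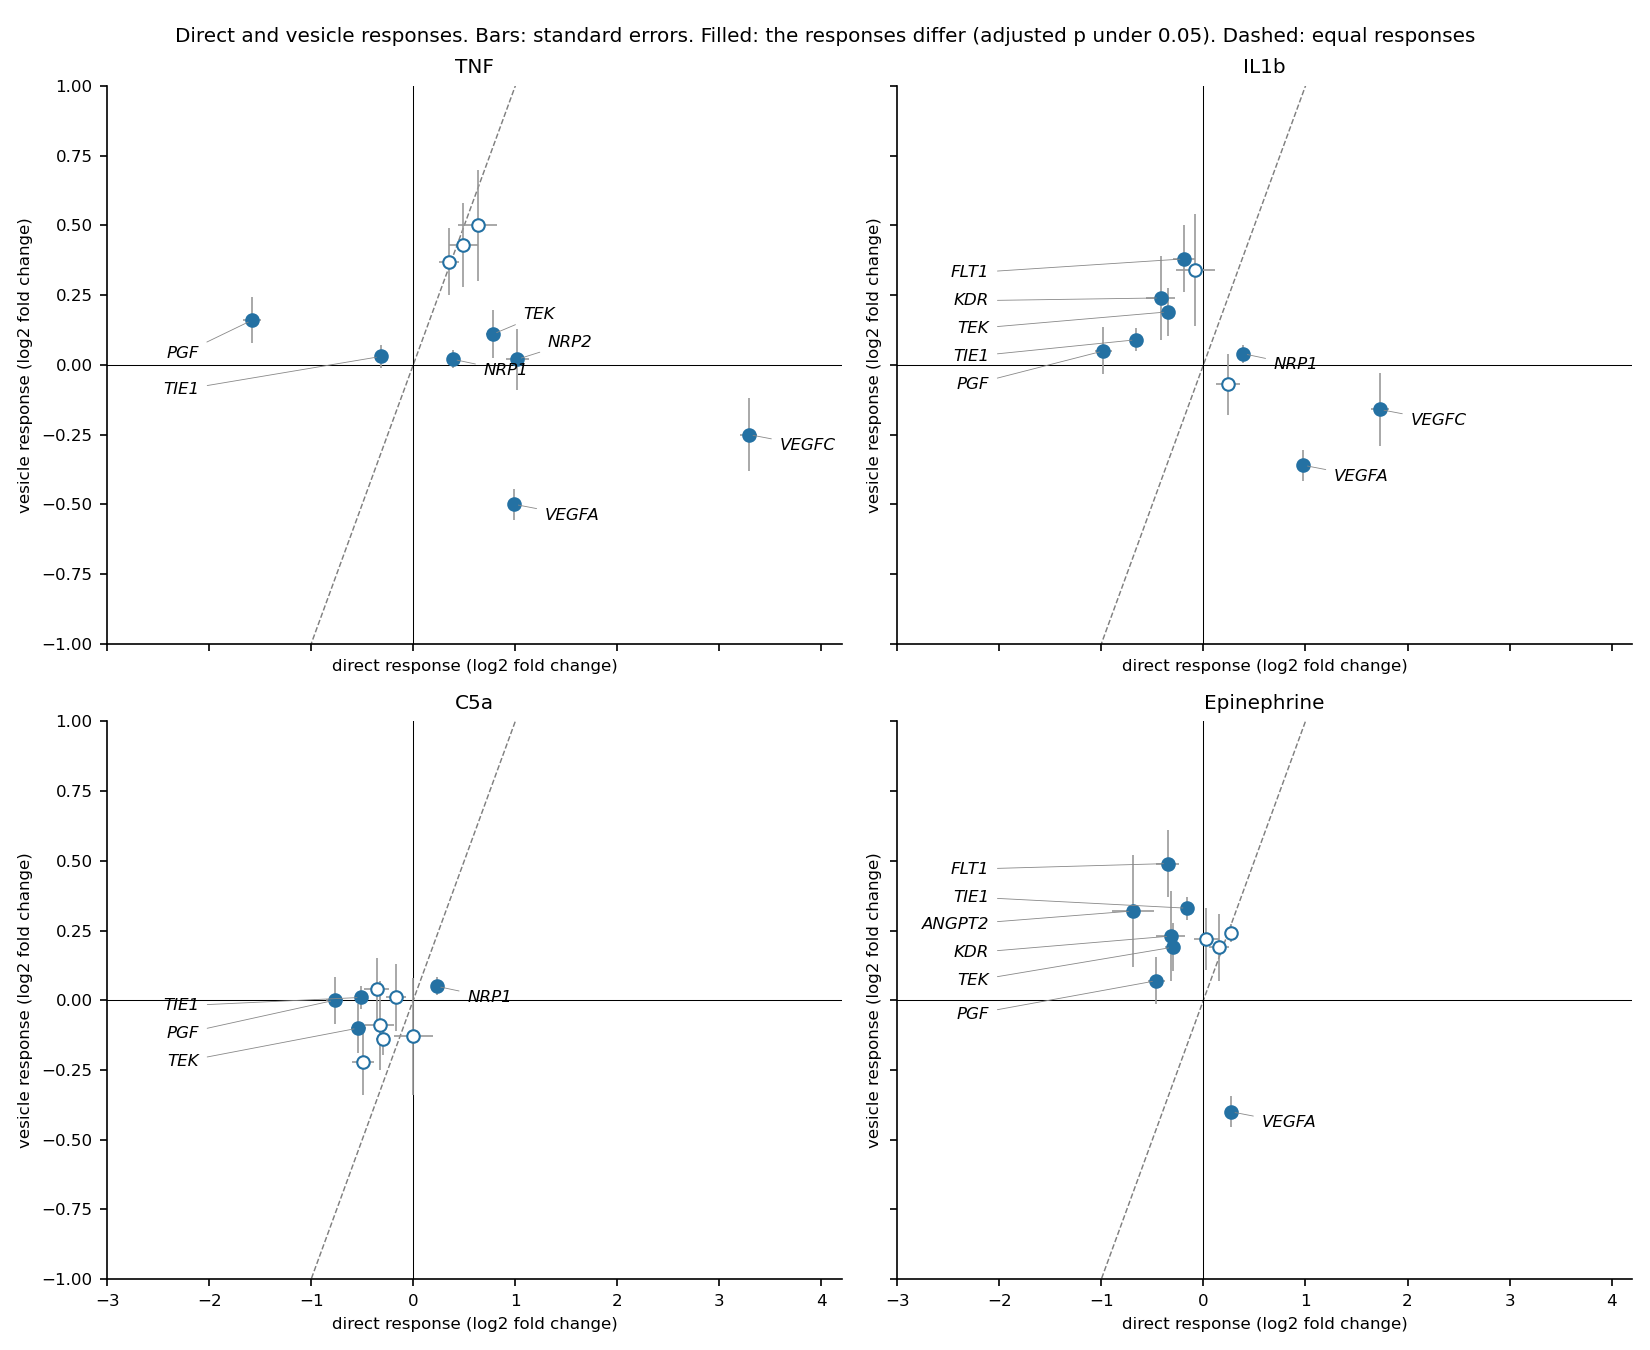
Log2 fold change of each gene with vesicles against EV-Control (vertical axis) and with the stimulus itself against Control (horizontal axis), 1 panel per stimulus. Bars are standard errors, the dashed line marks equal responses, and filled points are the genes named, whose 2 responses differed with an adjusted p under 0.05. VEGFC with TNF lies at 3.29 directly and -0.25 with vesicles.

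Whether vesicles acted like the stimulus that their donor cells had received was tested as the vesicle response minus the direct response. For TNF the vesicle response was the higher one for 2 of the 10 genes and the lower one for 5, against 21.3% and 23.4% of all genes tested (44.7% in all). For IL1b the counts were 5 and 3, against 16.9% and 18.3% (35.2%). For C5a they were 3 and 1, against 5.87% and 6.05% (11.9%), and for Epinephrine 6 and 1, against 11.7% and 12.5% (24.2%). VEGFC rose 9.8-fold with TNF and stood at 0.839 times EV-Control with EV-TNF, a difference of -3.54 on the log2 scale (standard error 0.15, adjusted p = 2.9e-30). For IL1b this difference was -1.87 (standard error 0.15, adjusted p = 1.9e-16). VEGFA, raised by both cytokines and lower with both kinds of vesicles, differed by -1.48 for TNF (adjusted p = 9.27e-24) and by -1.33 for IL1b (adjusted p = 5.18e-21). PGF, lower with all 4 stimuli and called in no vesicle comparison, differed by 1.74 for TNF (adjusted p = 2.44e-19) and 1.04 for IL1b (adjusted p = 8.64e-11). The direct and vesicle responses had unlike baselines. PGF was at 40.3 CPM in Control and 22.6 CPM in EV-Control, TEK at 36.7 and 20.3 CPM, and VEGFA at 50.7 and 78.9 CPM. The part of these baselines in the differences was not tested. KDR, FLT1 and ANGPT2 did not differ by this test for TNF, where the direct and vesicle values were 0.49 and 0.43, 0.35 and 0.37, and 0.63 and 0.5. The intervals of those differences, -0.48 to 0.36, -0.3 to 0.34 and -0.69 to 0.43, do not show that the responses were alike.

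The other genes of the pathway were read from lists of ligands and receptors, signalling proteins, VEGF targets and tip-cell genes, and hypoxia control, 93 genes in all. With TNF, 38 of the 87 tested were higher and 25 lower, against 27.5% and 25.3% of all genes. With IL1b the counts were 25 and 29 (24% and 22.6% of all genes), with C5a 13 and 23 (11.8% and 10.8%), and with Epinephrine 16 and 19 (13.5% and 11.8%). Their median log2 fold change was 0.16, -0.02, -0.08 and -0.02 in these comparisons. TNF lowered UNC5B, a netrin receptor of tip cells, from 101 ± 1.03 to 14.0 ± 0.772 CPM (log2 -2.84, adjusted p = 1.15e-27). It raised ADAMTS1, a secreted protease that binds VEGFA, from 10.8 ± 0.553 to 57.2 ± 7.32 CPM (log2 2.41) and the Notch target HEY1 from 1.75 ± 0.19 to 10.4 ± 1.37 CPM (log2 2.57). IL1b lowered the Notch target HES1 from 412 ± 27.2 to 94.1 ± 6.84 CPM (log2 -2.12), the flow-responsive factor KLF2 from 196 ± 39.6 to 54.2 ± 5.1 CPM (log2 -1.84) and the Notch ligand DLL4 from 8.73 ± 1.39 to 2.93 ± 0.686 CPM (log2 -1.57). All 6 had an adjusted p of 2.07e-05 or less.

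C5a lowered HES1 to 91.3 ± 12.0 CPM (log2 -2.16), KLF4 from 119 ± 28.7 to 31.7 ± 0.892 CPM (log2 -1.9) and KLF2 to 68.1 ± 1.84 CPM (log2 -1.51), with adjusted p of 0.000272 or less. Beside these, the summed immediate early genes were at 793 to 926 CPM with C5a, 1050 to 1120 CPM with IL1b, 2630 to 4050 CPM with TNF and 1400 to 2030 CPM in Control, and their part was not tested. Epinephrine raised HEY1 (log2 1.98), ANGPTL4 (1.14), a lipase inhibitor secreted under hypoxia, and ADAMTS1 (1.08). Of the 14 endothelial markers tested in the direct groups, 9 were lower and none higher with IL1b (22.6% and 24% of all genes). With C5a 10 were lower and none higher (10.8% and 11.8%), and with Epinephrine 9 and 1 (11.8% and 13.5%). With TNF 7 were lower and 5 higher (25.3% and 27.5%). Between the cytokines, 38 pathway genes were lower and 16 higher with IL1b than with TNF (21.4% and 19.9% of all genes), led by HEY1 (log2 -3.4), HES1 (-2.35) and KLF4 (-2.19).

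In the vesicle groups, 85 of the 93 pathway genes were tested. EV-TNF raised 7 and lowered 20 (5.9% and 7.42% of all genes), EV-IL1b 11 and 20 (6.49% and 8.14%), EV-Epinephrine 13 and 22 (9.12% and 10.5%), and EV-C5a none in either direction by edgeR's test or by DESeq2. At an unadjusted p under 0.05, 15 of them passed with EV-C5a, and without EV-Control library 3 the adjusted test called 5. HEY1 and ANGPTL4 were among the 3 named genes of each of the first 3. HEY1 had 8.95 ± 2.59 CPM in EV-Control and 3.62 ± 0.246, 3.82 ± 0.621 and 2.72 ± 0.522 CPM in EV-TNF, EV-IL1b and EV-Epinephrine (log2 -1.3, -1.22 and -1.7). ANGPTL4 had 126 ± 16.8 CPM in EV-Control and 57.5 ± 1.55, 66.3 ± 2.18 and 47.7 ± 1.13 CPM in the same groups (log2 -1.14, -0.93 and -1.41). SVEP1, a secreted matrix protein, rose from 16.1 ± 2.53 CPM to 31.5 ± 1.32 CPM in EV-TNF and 31.1 ± 0.657 CPM in EV-IL1b (log2 0.97 and 0.95). KLF4 fell from 233 ± 57.7 to 79.8 ± 3.11 CPM in EV-Epinephrine (log2 -1.55). With EV-C5a the endothelial factor SOX17 went from 47.1 ± 5.8 to 35.0 ± 1.6 CPM (log2 -0.43, adjusted p = 0.0357), a call lost in 8 of the other settings, among them without EV-Control library 1 or 2 or any 1 EV-C5a library (up to 0.312). Of the 13 hypoxia control genes tested, 6 were lower and 1 higher with EV-TNF, 7 and 1 with EV-IL1b, and 6 and 2 with EV-Epinephrine, against the same shares of all genes. ADM, a secreted peptide gene of that list, was among those higher with EV-Epinephrine (0.5, adjusted p = 0.0292). In EV-Control against Control, 25 of 87 pathway genes were higher and 15 lower (12.1% and 9.8% of all genes), with HEY1 up by 2.35 and the Notch ligand JAG1 by 1.29 on the log2 scale. JAG1 had 189 ± 83.5 CPM against 77.3 ± 0.749 CPM and was not called with only these 2 groups in the fit (adjusted p = 0.0841). The junction gene CLDN5 fell by 1.66 (15.1 ± 0.915 against 47.6 ± 3.35 CPM).

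In the differences between vesicle and direct responses, 19 of 87 pathway genes were higher and 37 lower for TNF (21.3% and 23.4% of all genes), 24 and 24 for IL1b (16.9% and 18.3%), 17 and 8 for C5a (5.87% and 6.05%), and 16 and 21 for Epinephrine (11.7% and 12.5%). HEY1 (log2 -3.87), the protease inhibitor TFPI2 (-2.64) and ANGPTL4 (-2.6) led for TNF. HES1 (2.73), KLF2 (2.34) and TFPI2 (-2.12) led for IL1b. HES1 (2.27), KLF4 (1.87) and KLF2 (1.76) led for C5a, and HEY1 (-3.67), ANGPTL4 (-2.54) and JAG1 (-1.65) for Epinephrine. All 12 had an adjusted p of 0.00222 or less in edgeR's test.

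For each of the 7 genes whose group means spanned at least 1 on the log2 scale, the 3 genes of most similar pattern were sought among 11058 genes by Pearson's r over the 10 group means of log2 CPM, as a description over groups that share 1 cell line and 2 control groups. VEGFC, with a span of 3.62, was most like HDGF (r = 0.995), TRAF1 (0.991) and SOAT1 (0.991). PGF was most like TKFC (0.971), RCN2 (0.969) and GRK5 (0.962), and VEGFA like BCL3 (0.953), AKAP8 (0.935) and SDC4 (0.933). NRP2 was most like ITGA5 (0.986), CCR10 (0.986) and PLD1 (0.982), and ANGPT2 like TRANK1 (0.945), EPHA2 (0.942) and P3H2 (0.939). TEK was most like GPKOW (0.977), ADAM15 (0.968) and POMGNT1 (0.965), and KDR like VPS29 (0.97), PODXL (0.965) and GPKOW (0.962), so that GPKOW was named for both receptors. The choice rests on the measure: by Spearman's rho, none of the 3 stayed among the top 3 for KDR, VEGFA, VEGFC and PGF, 1 for TEK, and 2 for NRP2 and ANGPT2. FLT1 (span 0.92), TIE1 (0.67) and NRP1 (0.46) varied too little for the search.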

How the data were processed

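The 30 RNA libraries were prepared with a NEBNext Ultra kit at an input of 1 ng, per the labels' protocols, and all carry 1 batch number. The authors deposited 1 table of raw counts per Ensembl gene. The submitters' processing notes name FastQC, STAR, DESeq2, R 4.4.1 and hg38; the counting program, annotation release and strand setting are not given in the sources used here. Lines without a gene ID (4, up to 0.0016% of a library) and 3 lines with a repeated ID were left out. So were 2 genes whose broken lines held no readable counts, which left 63138 genes. Intervals cover counting error and the spread between libraries, and no molecular identifiers are described.

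Counts were tested in R 4.3.3 with edgeR 4.0.16 (filterByExpr defaults, trimmed-mean factors, quasi-likelihood test with robust dispersion, two-sided, Benjamini-Hochberg adjustment over all genes, threshold 0.05). The standard error is the size of the log2 fold change divided by the root of F. Direct comparisons were fitted on 15 libraries (15908 genes), vesicle comparisons on 15 (15918), and EV-Control against Control and the response differences on all 30 (16691). CPM use the factors of the last fit. Levels per kilobase divide CPM by the longest CCDS transcript of GENCODE 29 (GRCh38). The test was checked on simulated counts. The 10 genes are always named. From the pathway and endothelial lists, up to 3 genes per comparison are named, those with the largest change among genes with an adjusted p under 0.05 and at least 5 CPM in the higher group. Genes of similar pattern were sought among those with at least 5 CPM in their highest group. The genes, lists and settings were chosen with earlier results of these data known. Other settings were DESeq2 1.42.0, relative log expression factors, library totals, no count filter, a mean of at least 50 counts, a log2 fold change over 1, other sets of libraries in the fit, the replicate number as a block and leaving out each library; the length of all exons was added after seeing the data.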

Additional observations from a re-analysis of the deposited data

Results flagged for a closer look

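In 26 cases the vesicle response of a gene differed from its direct response to the same stimulus, by edgeR's quasi-likelihood test of the difference on all 30 libraries with Benjamini-Hochberg adjustment. Of the 10 genes, 7 were called for TNF, 8 for IL1b, 4 for C5a and 7 for Epinephrine. Of all genes tested, 44.7%, 35.2%, 11.9% and 24.2% were called in the same tests. All 4 differences rest on the same Control and EV-Control libraries, so they are not independent of each other. These control groups themselves differed in 7 of the 10 genes. For TNF the vesicle response was lower than the direct one for VEGFC (-3.54 on the log2 scale), VEGFA (-1.48), NRP2 (-1.0), TEK (-0.67) and NRP1 (-0.37), and higher for PGF (1.74) and TIE1 (0.35). For IL1b it was lower for VEGFC (-1.87), VEGFA (-1.33) and NRP1 (-0.34), and higher for PGF (1.04), TIE1 (0.76), KDR (0.67), FLT1 (0.57) and TEK (0.55). For C5a it was higher for PGF (0.78), TIE1 (0.53) and TEK (0.45) and lower for NRP1 (-0.18). For Epinephrine it was higher for ANGPT2 (1.03), FLT1 (0.85), KDR (0.56), PGF (0.54), TEK (0.49) and TIE1 (0.49), and lower for VEGFA (-0.66). Endothelial markers moved beside these receptors in the same test: of 15, 8 were higher and 3 lower for TNF, 9 and 1 for IL1b, 9 and 0 for C5a, and 10 and 2 for Epinephrine, with medians of 0.17, 0.94, 0.41 and 0.46. Their part in the differences was not tested.

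FLT1 (-0.35 and 0.49) and TIE1 (-0.16 and 0.33) had called differences of opposite sign with Epinephrine and with its vesicles. Their baselines were unlike: FLT1 was at 17.7 CPM in Control and 14.0 CPM in EV-Control, and TIE1 at 163 and 124 CPM. The direct FLT1 call was lost without Epinephrine library 2, and the direct TIE1 call without Control library 1 or with only those groups in the fit. ANGPT2 had -0.69 and 0.32, the second of which did not pass on its own (adjusted p = 0.298). VEGFA moved in opposite directions for TNF (0.99 and -0.5), IL1b (0.98 and -0.36) and Epinephrine (0.27 and -0.4), each against its own control group. VEGFA was at 50.7 CPM in Control and 78.9 CPM in EV-Control. Its means in EV-TNF (56.0 CPM), EV-IL1b (61.4 CPM) and EV-Epinephrine (59.5 CPM) lay between these 2. The KDR difference for Epinephrine had an adjusted p of 0.0488 and was lost with DESeq2 (0.0536), with only the groups compared (0.0578) and without Control library 1, 2 or 3, Epinephrine library 2, EV-Control library 2 or 3, or EV-Epinephrine library 2 (up to 0.2). The KDR difference for IL1b was lost without IL1b library 2 (0.53, adjusted p = 0.0637), and the NRP1 difference for C5a without the filter on low counts (adjusted p = 0.0816). Scaled by total counts, the NRP1 difference for TNF was -0.08 (adjusted p = 0.158).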

How the results depend on the processing

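The 140 tests of the 10 genes were repeated in 2150 alternatives besides the fold threshold; 2096 kept direction and call, 41 lost the call, 11 gained it and 2 turned direction. Both turns were in IL1b against TNF with library totals, NRP1 (0.19) and VEGFA (0.19), neither of them called in the main test. Library totals shifted the median gene by -0.288 for TNF, -0.093 for IL1b, 0.205 for IL1b against TNF, and 0.313 and 0.113 for the response differences of TNF and IL1b. They moved the share of higher genes among those called from 51.5% to 38.6% for IL1b, 46.4% to 60.2% for EV-Epinephrine, 55.3% to 42.6% for EV-Control against Control, 47.7% to 76.7% for the TNF response difference and 48.1% to 62.4% for that of IL1b.

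Requiring a log2 fold change over 1 left 2037 genes with TNF, 1118 with IL1b, 330 with C5a, 313 with Epinephrine, 1124 for IL1b against TNF, 208 with EV-TNF, 219 with EV-IL1b, 0 with EV-C5a, 368 with EV-Epinephrine, 372 for EV-Control against Control, and 2260, 1188, 264 and 768 for the response differences of TNF, IL1b, C5a and Epinephrine. Of the 10 genes it left 3 with TNF, 1 with IL1b, 2 for IL1b against TNF, 4, 3 and 1 for the response differences of TNF, IL1b and Epinephrine, and 0 elsewhere. With only the groups compared in the fit, 1 of the 10 remained called with EV-TNF and 1 with EV-IL1b. Leaving out 1 library gave 1 to 4 genes of the 10 with EV-TNF and 1 to 2 with EV-IL1b. For EV-C5a the main test called 8 genes; the count was 3 with all 30 libraries, 5 with library totals, 3 at a mean of 50 counts, 73 with no filter, 3 with only the groups compared, and 2 to 175 on leaving out 1 library, the highest without EV-Control library 3.

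The genes named from the lists kept direction in every setting and lost a call only for SOX17 with EV-C5a and JAG1 in EV-Control against Control, apart from the fold threshold, and these settings were added after seeing the data. Libraries with the same replicate number did not deviate together (r from -0.04 to 0.03), so the numbers are not taken to pair them. With a replicate block the counts of the 10 genes were unchanged in every comparison except EV-TNF, where 3 were called in place of 2 (KDR 0.42, adjusted p = 0.0497), and with TNF the count over all genes was 8339. Depth limits ANGPT2 most, with 40 to 127 counts per library. Calls lost or gained without a library are named beside each result, apart from the NRP2 response difference for IL1b, which was called without Control library 2 (-0.41, adjusted p = 0.0497), and where an arm is left with 2 libraries its spread is pooled with the other groups.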
